A study of Mus musculus with 20 samples.

Results

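Gata6, Pdgfra, Sox17, Gata4, Sox7, Foxa2 and Hnf4a were followed as regulators of the primitive endoderm, the layer of the late blastocyst that faces the cavity and later forms yolk sac endoderm. They were taken as a list of 6 transcription factor genes and 1 receptor gene, and matched by mouse symbol to the Ensembl identifiers of the count files. All 7 were found among 30265 genes, and all 7 passed the filter on low counts in both experiments. The list was read from early to late regulators, with Gata6 and Pdgfra as early, Sox17 and Gata4 as middle, and Sox7, Foxa2 and Hnf4a as late. The study raised or lowered Klf5, which encodes a zinc-finger factor of the Krüppel-like family. Embryonic stem cells (ESCs) were C57BL/6J-derived, grown with LIF on irradiated mouse embryonic fibroblasts, and overexpressed GFP (2 libraries) or Klf5 (2 libraries). Neither the vector nor its promoter is given in the sources used here. Single late blastocysts (E4.5) were cultured in KSOM with BSA after scramble siRNA (10 embryos) or Klf5 siRNA (6 embryos), 1 library each. The labels give the embryo strain as C57BL/5J. Each embryo library holds the trophectoderm, epiblast and primitive endoderm together.

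In the blastocyst, inner cell mass cells first express Gata6 and Nanog together. FGF4 from epiblast precursors, acting through FGF receptors and ERK, then favours Gata6 over Nanog in the cells that become primitive endoderm. GATA6, a zinc-finger factor, acts at the head of the series, and PDGFRA, the receptor tyrosine kinase for PDGF-A, marks the precursors and supports their survival. The HMG-box factor SOX17 and the zinc-finger factor GATA4 follow. SOX7, a second HMG-box factor of the same SOX subfamily, the forkhead factor FOXA2 and the nuclear receptor HNF4A belong to the later primitive endoderm and its visceral endoderm derivative.

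The RefSeq promoter table (GRCm38.p6) matched 3 of the 7 genes, Foxa2, Hnf4a and Pdgfra, with 6 windows. Of these, a window of Hnf4a and the window of Pdgfra are shown because these genes passed the test in 1 experiment each. The windows run from 250 to 51 bases before a transcript start. Capitals mark matches on either strand to CACCC, a sequence of the kind that Krüppel-like factors bind.
Hnf4a, chr2:163506607-163506806, plus strand: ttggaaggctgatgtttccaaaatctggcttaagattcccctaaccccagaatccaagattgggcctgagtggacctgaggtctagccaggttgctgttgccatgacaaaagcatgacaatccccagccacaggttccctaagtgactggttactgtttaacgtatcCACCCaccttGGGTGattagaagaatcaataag
Pdgfra, chr5:75152001-75152200, plus strand: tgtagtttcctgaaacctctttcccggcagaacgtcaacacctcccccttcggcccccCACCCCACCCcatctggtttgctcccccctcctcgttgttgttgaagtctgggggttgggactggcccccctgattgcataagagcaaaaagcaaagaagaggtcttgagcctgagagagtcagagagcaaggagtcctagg
Each of these windows held 2 matches to CACCC, which in Pdgfra adjoin each other. Of the windows not shown, the other Hnf4a window held 4 and the Foxa2 windows held 0, 0 and 1. Of all 32851 windows of 200 bases, 44.4% held at least 1 such match. The motif AGATAA, of the kind that GATA factors bind, was in neither window shown, in 1 Foxa2 window and in 8.42% of all windows. A match is a description of the letters and not a measured binding site.

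On GRCm38 Gata6 lies at chr18:11052064-11085635 on the plus strand (ENSMUSG00000005836) and Pdgfra at chr5:75152292-75198215 on the plus strand (ENSMUSG00000029231). Sox17 lies at chr1:4490931-4497354 on the minus strand (ENSMUSG00000025902). Gata4 (chr14:63198922-63271692, minus strand, ENSMUSG00000021944) and Sox7 (chr14:63943673-63950732, plus strand, ENSMUSG00000063060) share chromosome 14. Foxa2 (chr2:148042877-148046969, minus strand, ENSMUSG00000037025) and Hnf4a (chr2:163506808-163572910, plus strand, ENSMUSG00000017950) share chromosome 2.

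Total counts, in units of 1e6, were 26.8 to 37.5 in ESC libraries and 14.7 to 24.9 in embryo libraries. Over these unscaled totals 3 counts, the limit that a count of 0 allows, are 0.0800 to 0.112 CPM (counts per 1e6 counts) in ESCs. In embryos they are 0.120 to 0.204 CPM. This limit covers counting error only. The CPM of genes given below use scaled library sizes, on which the limit differs. In Klf5 siRNA embryo 1, for example, 3 counts are 0.258 CPM on that scale. Klf5 stood at 80.5 and 70.8 CPM in the GFP libraries and at 942 and 882 CPM in the Klf5 libraries, a log2 fold change of 3.59 (edgeR adjusted p = 0.000323). In embryos it ranged from 382 to 592 CPM after scramble siRNA and from 80.8 to 543 CPM after Klf5 siRNA, a log2 fold change of -1.07 (edgeR adjusted p = 0.0273). Klf5 siRNA embryo 1, at 543 CPM, lay within the scramble range.

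In scramble embryos the order of the levels largely followed the order from early to late. Levels are given as counts per kilobase of exon, scaled to sum to 1e6 over all genes of a library (length-scaled counts). Gata6 stood at 21.1 ± 7.08 (SD, n = 10). Sox17 stood at 7.57 ± 8.18, Pdgfra at 6.04 ± 3.02 and Gata4 at 4.40 ± 2.64. The late regulators were lowest, with Sox7 at 1.49 ± 1.52, Foxa2 at 1.21 ± 0.945 and Hnf4a at 0.623 ± 0.416. The genes are given here in the order of their mean log2 level. 2 of the 6 neighbouring steps in this order were larger than their spread between embryos. Gata6 exceeded Sox17 by 1.80 ± 0.81 on the log2 scale (SD, higher in 9 of 10 embryos), and Gata4 exceeded Sox7 by 1.99 ± 1.46 (10 of 10 embryos). Sox17 and Pdgfra did not differ beyond their spread, with a log2 difference of 0.08 ± 0.88, and neither did Pdgfra and Gata4, Sox7 and Foxa2, or Foxa2 and Hnf4a. The order depends on the exon length used for each gene, and with the median transcript length 3 of the 7 genes kept their rank. Sox17 then came after Pdgfra, and Hnf4a (rank 5) came before Foxa2 (rank 6) and Sox7 (rank 7). Without scramble embryo 5, which had the highest Sox17 level (29.9), or without scramble embryo 6, 5 of 7 kept their rank.

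After Klf5 siRNA the order of mean log2 levels was Gata6, Pdgfra, Gata4, Sox17, Sox7, Foxa2 and Hnf4a. Gata6 led at 11.0 ± 7.04 length-scaled counts (SD, n = 6), ahead of Pdgfra at 1.32 ± 0.888, Gata4 at 1.14 ± 1.23 and Sox17 at 0.465 ± 0.420. Sox7 stood at 0.397 ± 0.509, Foxa2 at 0.182 ± 0.286 and Hnf4a at 0.0925 ± 0.101. The step from Gata6 to Pdgfra was 2.87 ± 1.42 (6 of 6 embryos) and was the 1 step larger than its spread. Sox17 came after Gata4 here and before Pdgfra in scramble embryos, but its step to Gata4 here (0.74 ± 1.16) and its step to Pdgfra there lay within their spread.

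ESCs had another order. In GFP cells Gata4 was highest at 11.2 ± 1.35 length-scaled counts (SD, n = 2). Foxa2 stood at 2.30 ± 0.0378, Sox17 at 2.31 ± 0.385 and Gata6 at 1.96 ± 0.124. Pdgfra (0.946 ± 0.0735), Sox7 (0.688 ± 0.0270) and Hnf4a (0.189 ± 0.0761) were lower. Foxa2 and Sox17 did not differ beyond their spread. Gata4 also led in Klf5 cells, at 39.9 ± 22.3, followed in the order of mean log2 levels by Sox17 at 11.4 ± 6.12, Gata6 at 10.6 ± 5.25, Foxa2 at 11.6 ± 9.89 and Sox7 at 7.70 ± 3.40. Pdgfra (1.91 ± 0.303) and Hnf4a (1.93 ± 0.753) came last. In Klf5 cells the log2 steps from Gata6 to Foxa2 (0.09 ± 0.66) and from Foxa2 to Sox7 (0.35 ± 0.75) lay within their spread. So did the step from Pdgfra to Hnf4a (0.03 ± 0.33). Each spread here is an SD of 2 libraries. Levels in ESCs and embryos come from different library kits and were not tested against each other.

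**Figure D1:**
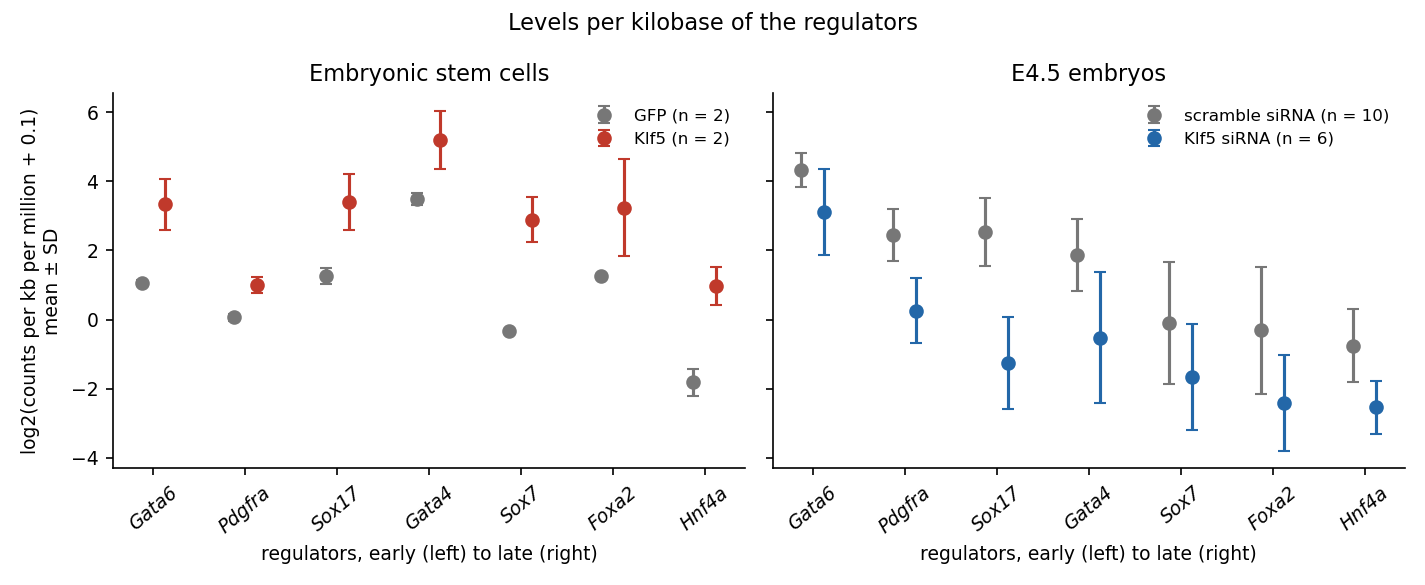
Level of each regulator by group, in length-scaled counts (counts per kilobase of exon, scaled to 1e6 per library) on a log scale. In scramble embryos Gata6, with a mean level of 21.1, lies above the other members, and Hnf4a, with a mean level of 0.623, is lowest.

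The members also differed in how much they varied between scramble embryos. Gata6 varied least, with an SD of 0.47 of its log2 CPM (19.8% of genes tested varied less). Pdgfra and Sox17 varied by 0.82 and 0.85, near the median of 0.74 over all genes. Gata4 varied by 1.10 and Hnf4a by 1.30. Sox7 and Foxa2 varied most, by 2.10 and 2.02, more than 96.2% and 95.3% of genes. These are also genes of low counts. Between 5 and 7 of the 7 genes had more than 3 counts in each scramble embryo, and 4, 4, 5, 2, 6 and 7 had so in Klf5 siRNA embryos 1 to 6.

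Pairs of members were correlated over the 10 scramble embryos, in log2 CPM, with permutation p-values adjusted over 21 pairs. 15 pairs had a Pearson r above 0, and r ranged from -0.17 to 0.87. Sox7 and Foxa2 were the 1 pair that passed, with r = 0.87 (permutation p = 0.00041, adjusted p = 0.00861) and Spearman's rho = 0.73 (permutation p = 0.0201, adjusted p = 0.278). Scramble embryos 5 and 6 lay farthest from the median of Sox7, and r was 0.64 without them. 4 other pairs had an unadjusted permutation p under 0.05. These were Gata6 with Pdgfra (r = 0.69, rho = 0.71, adjusted permutation p = 0.150), Pdgfra with Gata4 (r = 0.74, rho = 0.53, adjusted permutation p = 0.118), Gata4 with Sox7 (r = 0.73, rho = 0.60, adjusted permutation p = 0.118) and Gata4 with Foxa2 (r = 0.64, rho = 0.36, adjusted permutation p = 0.174). Without the 2 farthest embryos these were 0.67, 0.49, 0.33 and -0.05, so the last rests on scramble embryos 6 and 8. The r of Hnf4a with the other members lay between -0.17 and 0.10. Each embryo adds 1 point to every pair, so that depth and cell numbers are shared.

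**Figure D2:**
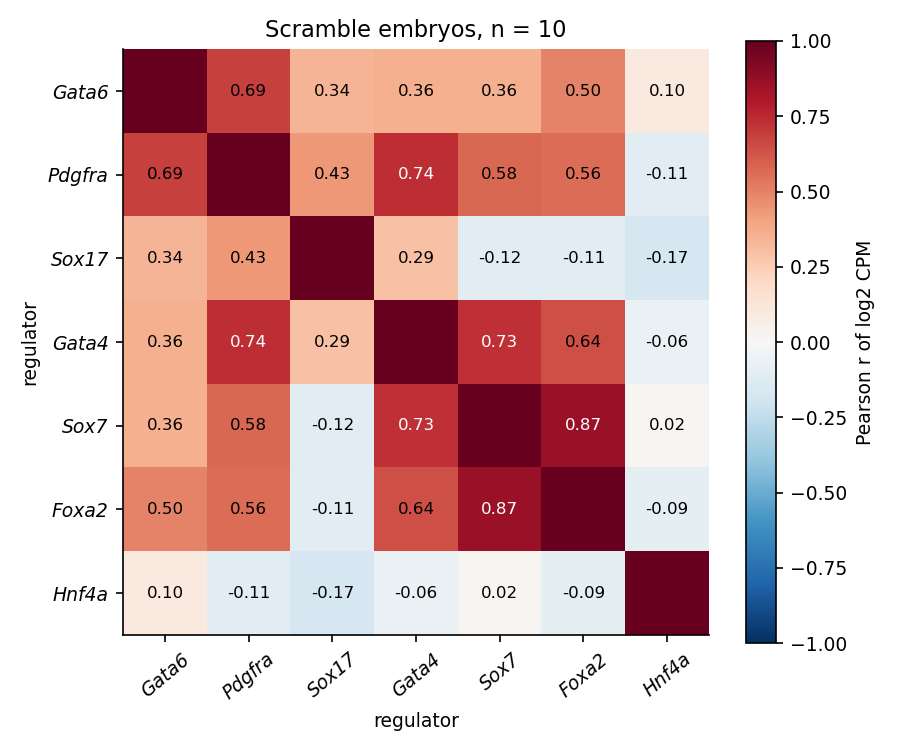
Pearson r between members over 10 scramble embryos, in log2 CPM. Sox7 with Foxa2 is highest at 0.87, and the row of Hnf4a holds values between -0.17 and 0.10.

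Raising Klf5 in ESCs was accompanied by higher counts of all 7 genes. Sox7 rose 10.3-fold and Hnf4a 9.19-fold, both late regulators. The other 5 had fitted folds of 1.85 to 5.01 and did not pass the adjusted test. Both Klf5 libraries lay above both GFP libraries for all 7 genes, which was so in 28.9% of the genes tested. Higher calls came to 1.67% of the 15968 genes tested and lower calls to 1.11%, against 2 and 0 of the 7 members. The labels do not say that the 2 libraries of a group were separate cultures, so the ESC p-values rest on a spread between samples that may be technical.

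Among the early regulators, Gata6 stood at 5.69 and 4.80 CPM in GFP cells and 16.0 and 36.4 CPM in Klf5 cells. The fitted log2 fold change was 2.33 ± 0.43 (SE; edgeR adjusted p = 0.0632). Pdgfra stood at 3.82 and 3.93 CPM in GFP cells and 6.04 and 8.31 CPM in Klf5 cells, with a log2 fold change of 0.89 ± 0.24 (edgeR adjusted p = 0.0873). It had the smallest fold of the 7, and fibroblasts such as the feeders also express it. Fibroblast markers summed to 1683 to 1748 CPM in GFP cells and 2073 to 2241 CPM in Klf5 cells, and their part in the result for Pdgfra was not tested. Of the 17 fibroblast markers tested, Col1a2, a fibrillar collagen chain, was called higher (log2 fold change 0.78, edgeR adjusted p = 0.0347), none was called lower, and the median was 0.26.

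Of the middle regulators, Sox17 stood at 5.25 and 3.82 CPM in GFP cells and 11.9 and 29.2 CPM in Klf5 cells (log2 fold change 2.19 ± 0.48, edgeR adjusted p = 0.0844). Gata4 stood at 20.2 and 15.7 CPM and then 33.5 and 84.7 CPM (1.73 ± 0.51, edgeR adjusted p = 0.158). In both, the 2 Klf5 libraries lay further apart than the GFP libraries.

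The late regulators started from the lowest counts. Sox7 stood at 0.994 and 0.867 CPM in GFP cells and 6.20 and 13.0 CPM in Klf5 cells, a log2 fold change of 3.37 ± 0.41 (edgeR adjusted p = 0.0285). Hnf4a stood at 0.278 and 0.461 CPM, from 7 and 17 counts, against 2.39 and 4.63 CPM (3.20 ± 0.46, edgeR adjusted p = 0.0302). Both calls were lost without GFP library 1 (edgeR adjusted p = 0.168 and 0.163) and without GFP library 2 (0.0775 and 0.0518), and also with limma voom (0.0571 and 0.0624). Without a GFP library the spread comes from the Klf5 pair alone. Foxa2 stood at 2.35 and 2.11 CPM and then 3.92 and 17.2 CPM (2.25 ± 0.79, edgeR adjusted p = 0.199). Its Klf5 libraries differed by 4.40 times.

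**Figure D3:**
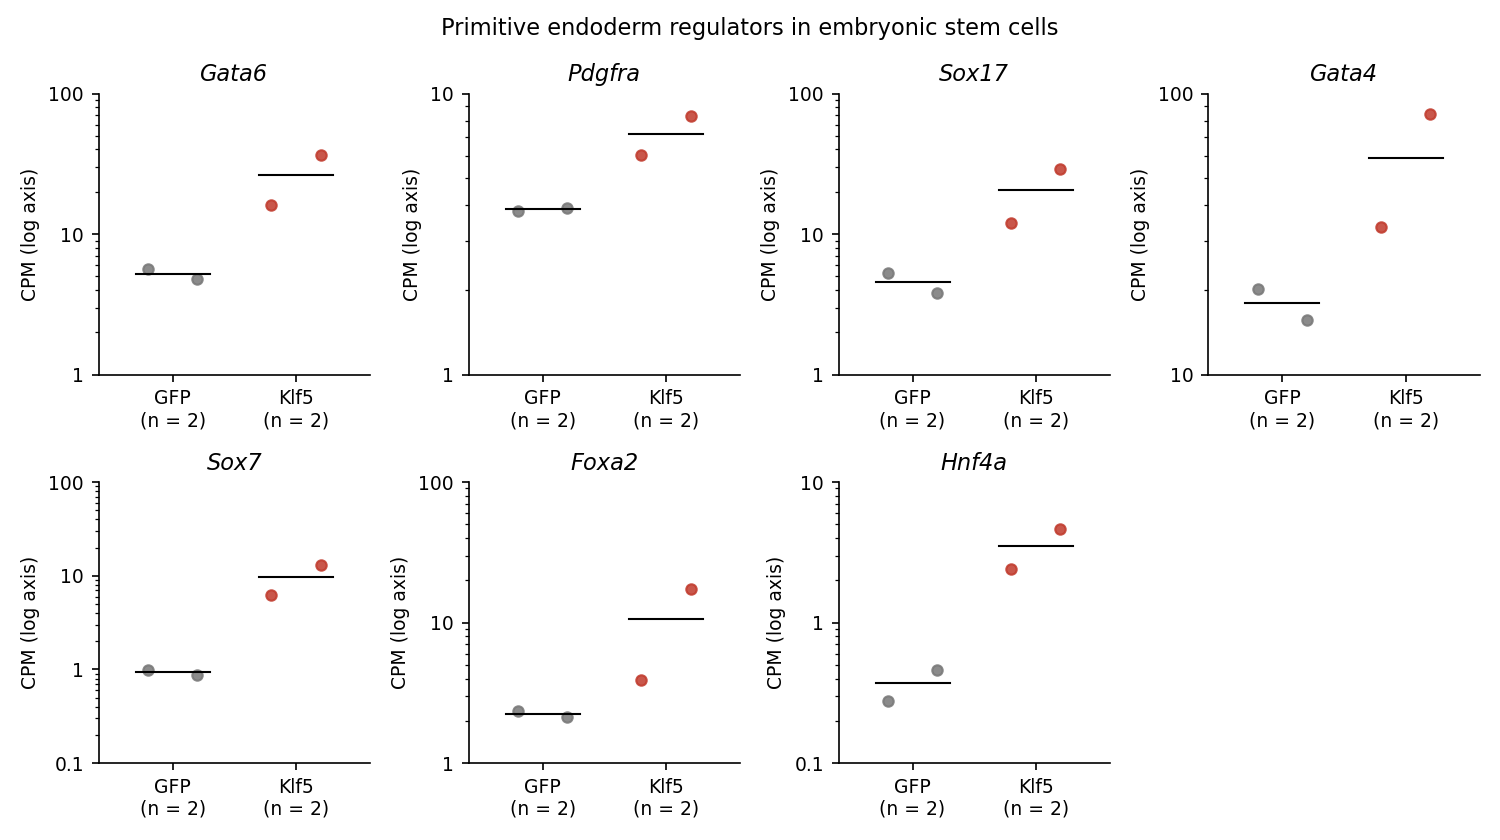
CPM of each regulator (log axis) in the 2 GFP and 2 Klf5 ESC libraries, points being libraries. The 2 Klf5 points lie above both GFP points for all 7 genes.

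All 7 genes were higher in Klf5 library 2 than in Klf5 library 1, by 1.38 times for Pdgfra to 4.40 times for Foxa2, and 5 of 7 by at least 2 times. Among all genes tested, 48.1% were higher in library 2 and 3.47% by at least 2 times. Klf5 itself was not, at 0.936 times. Leaving out Klf5 library 1 gave calls for 6 of the 7 genes, and leaving out Klf5 library 2 for 5 of 7. In these fits the spread comes from the GFP pair alone, and the lone Klf5 library is assumed to vary like it, so these counts do not support the calls. Without Klf5 library 2, which holds the higher values, the log2 fold change was 1.62 for Gata6, 1.40 for Sox17 and 0.91 for Gata4.

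Related lists had smaller median changes in ESCs. The median log2 fold change was 2.25 over the 7 members and -0.00 over all genes tested. Of 27 other primitive and visceral endoderm genes tested, 3 were called higher and 0 lower, with a median of 0.90. These were the endocytic adaptor gene Dab2 (2.31, edgeR adjusted p = 0.0415), the endocytic receptor gene Cubn (2.95, 0.0486) and the homeobox gene Hhex (1.23, 0.0451). None of 5 PDGF ligand and second-receptor genes was called, with a median of 0.05, and Pdgfrb had the smallest p (0.69, edgeR adjusted p = 0.0702). Among 16 genes of the FGF and ERK signal, the feedback gene Spry2 (1.16, edgeR adjusted p = 0.0295) and the ETS factor gene Etv5 (0.90, 0.0399) were called higher. Dusp6, an ERK phosphatase gene, was called lower (-0.69, edgeR adjusted p = 0.0495), and the median was 0.04. None of 9 tested paralogs of the members was called, with a median of 0.65. Of 16 epiblast genes 3 were called higher (Bmp4, Tbx3 and Tdh; median 0.53), of 13 trophectoderm genes 0 were called higher (median -0.93) and of 10 mesendoderm and definitive endoderm genes 0 were called (median 0.54).

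In embryos with Klf5 siRNA, the middle regulator Sox17 and the early receptor gene Pdgfra fell. Sox17 was 11.3-fold lower and Pdgfra 3.68-fold lower. The other 5 genes had negative fitted changes that did not pass, so all 7 of 7 members lay below 0, against 50.2% of the 12385 genes tested. Lower calls came to 7.74% and higher calls to 12.0% of the genes tested, against 2 and 0 of the 7 members. The median log2 fold change was -1.88 over the members and -0.01 over all genes. In whole embryos, fewer cells of a type and less RNA per cell cannot be told apart. Library numbers in the sample descriptions are lower for every scramble embryo than for every Klf5 siRNA embryo, so library order and treatment cannot be told apart.

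Gata6 ranged from 41.8 to 124 CPM in scramble embryos (median 67.0) and from 7.50 to 77.3 CPM in Klf5 siRNA embryos (median 53.2). Its log2 fold change was -0.57 ± 0.37 (SE; edgeR adjusted p = 0.293), and the groups overlapped. Pdgfra, the other early gene, ranged from 7.88 to 58.7 CPM (median 29.1) in scramble embryos and from 3.35 to 16.0 CPM (median 7.55) in Klf5 siRNA embryos. Its log2 fold change was -1.88 ± 0.43 (edgeR adjusted p = 0.00432), with overlapping groups. The call of Pdgfra was lost with the mitochondrial percent as a covariate (-1.36, edgeR adjusted p = 0.0999). Mitochondrial genes took 4.34 to 18.5% of counts in scramble embryos and 2.45 to 10.3% in Klf5 siRNA embryos.

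Sox17 ranged from 6.97 to 47.0 CPM (median 12.1) in scramble embryos and from 0.0560 to 3.79 CPM (median 1.44) in Klf5 siRNA embryos. Every Klf5 siRNA embryo lay below every scramble embryo, which was so in this direction in 1.91% of the genes tested. The log2 fold change was -3.50 ± 0.67 (edgeR adjusted p = 0.00138), and only 0.597% of genes had a lower one. Gata4, the other middle regulator, ranged from 1.47 to 17.4 CPM (median 8.95) and from 0.0859 to 8.95 CPM (median 2.44). Its change was -1.61 ± 0.72 (edgeR adjusted p = 0.122), and Klf5 siRNA embryo 5 lay at the scramble median. Without that embryo, the highest of its group in Gata4, the change was -2.34 (edgeR adjusted p = 0.0405). This was 1 of 29 alternative fits. Gata4 did not pass in the other 28, with an adjusted p of up to 0.358.

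The late regulators were low in all embryos. Sox7 ranged from 0 to 8.89 CPM (median 1.93) after scramble siRNA and from 0 to 3.54 CPM (median 0.611) after Klf5 siRNA (-1.51 ± 1.13, edgeR adjusted p = 0.372). With the mitochondrial percent as a covariate its sign turned (0.89, edgeR adjusted p = 0.838). Foxa2 ranged from 0 to 3.69 CPM (median 2.05) and was at 0 in 4 of 6 Klf5 siRNA embryos, with 1.18 CPM as the highest (-2.31 ± 1.31, edgeR adjusted p = 0.227). Hnf4a ranged from 0.107 to 3.87 CPM (median 1.25) and from 0 to 0.945 CPM (median 0.175; -2.29 ± 0.99, edgeR adjusted p = 0.110). None of the 3 passed with edgeR, while DESeq2 called Hnf4a lower (-2.31, adjusted p = 0.0264).

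**Figure D4:**
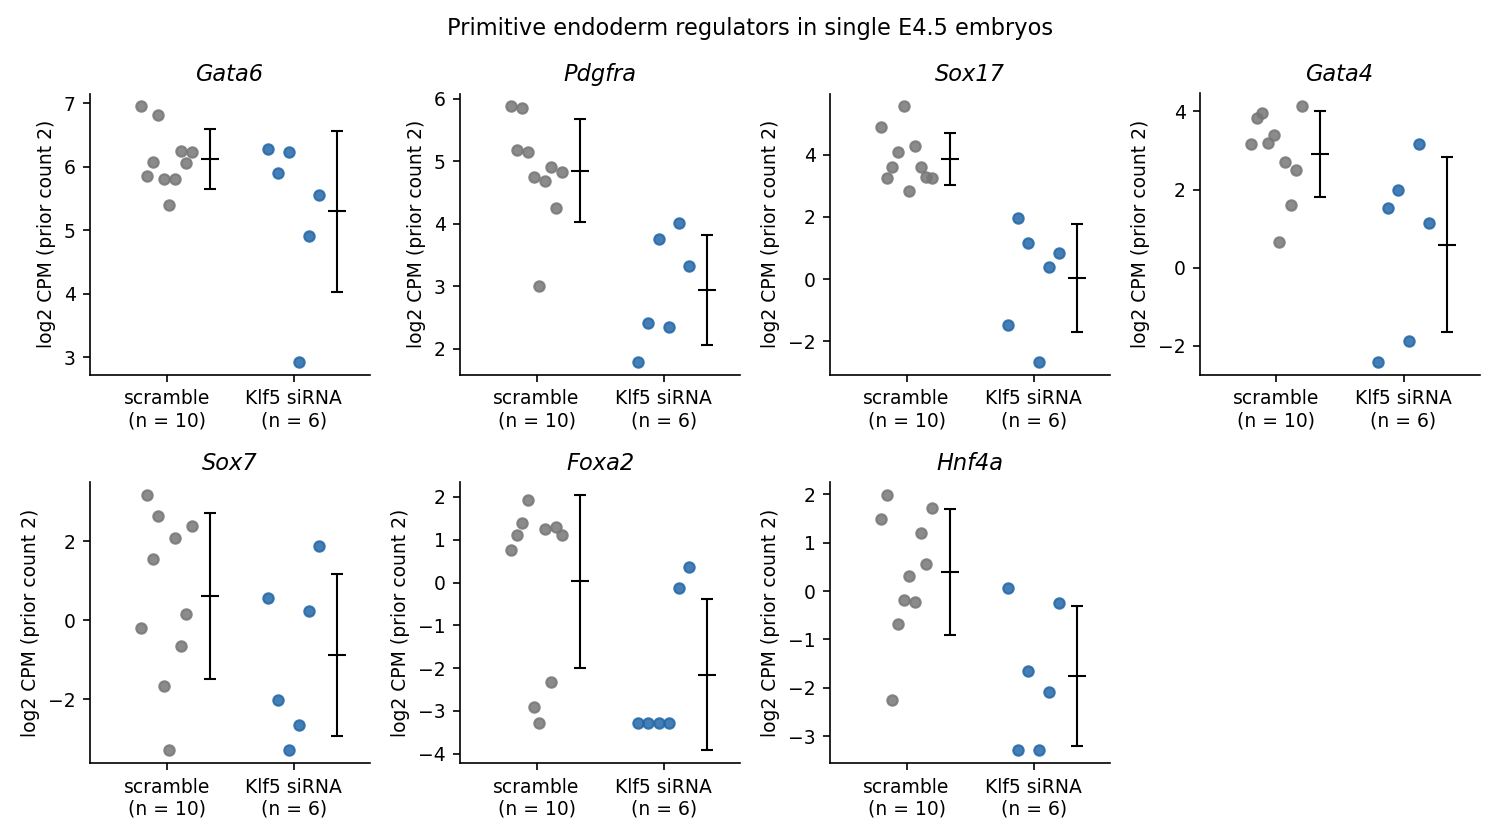
Level of each regulator by embryo, points being single embryos of the scramble and Klf5 siRNA groups. Sox17 is the 1 gene whose groups do not overlap, with 6.97 CPM as the lowest scramble and 3.79 CPM as the highest Klf5 siRNA value.

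Klf5 siRNA embryo 1 held 543 CPM of Klf5 but 3.35 CPM of Pdgfra. Sox17 stood there at 0.258 CPM (3 counts) and Gata4 at 0.0859 CPM (1 count), both near the counting limit. Gata6 in this embryo was 77.3 CPM, the highest of the group. Klf5 siRNA embryo 4 was lowest in Gata6 (7.50 CPM) and in Sox17 (0.0560 CPM, 1 count).

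**Figure D5:**
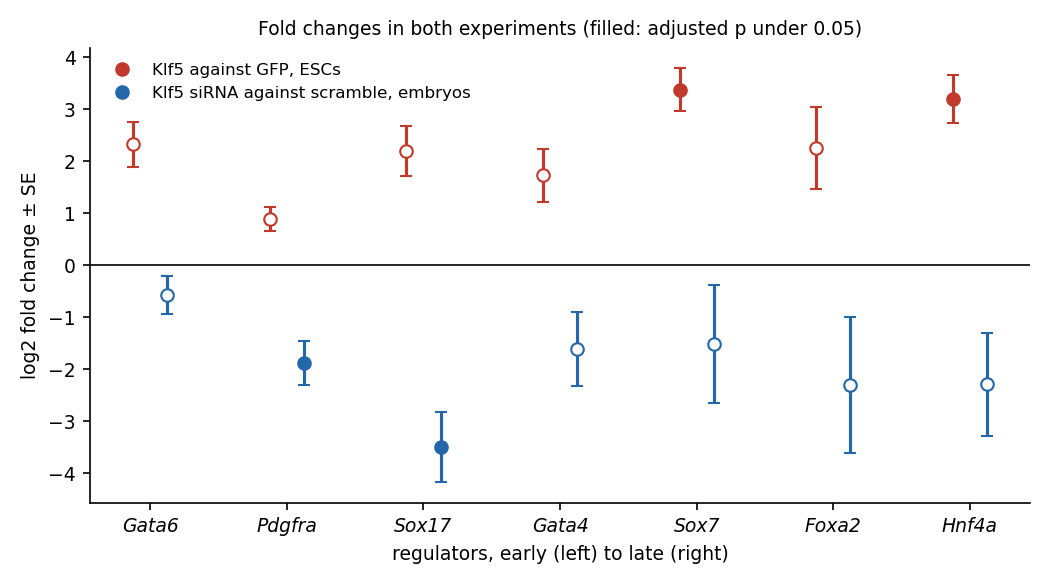
Fitted log2 fold change with SE of each regulator, for Klf5 against GFP in ESCs and Klf5 siRNA against scramble in embryos. All 7 values are above 0 in ESCs and below 0 in embryos, with Sox7 and Hnf4a called in the first and Pdgfra and Sox17 in the second.

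Side by side, the member with the largest fitted change was Sox7 in ESCs and Sox17 in embryos. No member was called in both comparisons with edgeR, whereas DESeq2 called Sox17 and Hnf4a in both. Gata6 stood at 2.33 in ESCs and -0.57 in embryos, and Sox17 at 2.19 and -3.50. The comparisons share no library.

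To compare each gene with Gata6 within an embryo, log2 CPM differences to Gata6 were tested between groups. This measure was chosen after the data were seen. Sox17 relative to Gata6 was lower by a mean log2 difference of -3.01 (exact two-sided permutation p = 0.000125, adjusted over 6 ratios p = 0.000749), with 6 of 6 Klf5 siRNA embryos below the scramble mean and no overlap. For Pdgfra it was -1.08 (exact permutation p = 0.0549, adjusted p = 0.111), for Gata4 -1.50 (0.0743, adjusted p = 0.111) and for Hnf4a -1.32 (0.0739, adjusted p = 0.111), all by exact permutation. For Foxa2 it was -1.36 (exact permutation adjusted p = 0.243) and for Sox7 -0.67 (exact permutation adjusted p = 0.528). Pdgfra passed without Klf5 siRNA embryo 4 (adjusted permutation p = 0.0330) or 5 (0.0373), and Gata4 without embryo 5 (0.0180). Embryo 4 was the lowest of its group in Gata6, and embryo 5 the highest in Pdgfra and Gata4. Leaving them out lowers these mean ratios by construction, so these p-values do not support a change of Pdgfra or Gata4 relative to Gata6.

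Of 19 other primitive and visceral endoderm genes tested, Cited1, a transcriptional coregulator gene, was called higher (3.88, edgeR adjusted p = 0.00112). Lamc1, a laminin chain gene of the basement membrane, was called lower (-1.51, edgeR adjusted p = 0.00710), and the median was -0.19. Among 15 FGF and ERK genes tested, the receptor gene Fgfr2 (-1.57, edgeR adjusted p = 0.000820) and the ligand gene Fgf4 (-2.11, 0.0491) were called lower and 0 higher, with a median of -0.78. Neither of 2 PDGF genes tested was called (median -0.07), and Pdgfa, the ligand of PDGFRA, stood at 71.7 ± 14.9 CPM in scramble and 56.2 ± 18.8 CPM in Klf5 siRNA embryos (SD; -0.35, edgeR adjusted p = 0.317). Of 4 paralogs tested 2 were called lower, Gata3 (-0.97, edgeR adjusted p = 0.0148) and Gata2 (-1.86, 0.0348), both also trophectoderm factors (median -0.52).

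Of 15 epiblast genes tested, Klf2 was called higher (1.20, edgeR adjusted p = 0.0215) and Fgf4 and Bmp4 lower (median -0.51). Bmp4 was at 0 in all 6 Klf5 siRNA embryos. In scramble embryos it stood at 2.93 ± 2.53 CPM (SD), with a count in 9 of 10. Against 3 counts per library the mean was at least 15.1-fold lower, a limit that covers counting error only. Nanog, which opposes Gata6 in inner cell mass cells, had a log2 change of 0.89 (edgeR adjusted p = 0.0697). Of 15 trophectoderm genes 9 were called lower and 0 higher (median -1.57), with Elf5, Fgfr2, Tfap2a and Eomes at the smallest p. Their summed level ranged from 5249 to 10433 CPM in scramble and from 583 to 11163 CPM in Klf5 siRNA embryos, and its part in the changes of the members was not tested. Dppa1, Krt18 and Krt8 had the highest scramble means of the list (2673, 2067 and 1497 CPM), so they weigh most in this sum. Dppa1 was not called (0.21, edgeR adjusted p = 0.779), while Krt18 and Krt8 were called lower. Of 4 mesendoderm and definitive endoderm genes tested, Eomes, also on the trophectoderm list, was called lower (median -0.70). Fibroblast genes summed to 0.380 to 5.02 CPM in scramble and 1.37 to 23.4 CPM in Klf5 siRNA embryos. 1 of these 18 genes was tested, Thy1, which was called higher (4.25, edgeR adjusted p = 0.00621).

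The genes most like each member over the 10 scramble embryos were sought among 7919 named protein-coding genes with a mean of at least 5 CPM. Gata6 was most like Otud1 (Pearson r = 0.94 of log2 CPM), Rab11fip1 (0.92) and Ccni (0.92). Pdgfra was most like Anln (0.95), Zfp507 (0.94) and Ddx17 (0.94), and Sox17 was most like Atl2 (0.94), Me1 (0.89) and Slc52a3 (0.85). For Gata4 these were Tex15 (0.92), Tti1 (0.92) and Dnajc10 (0.91), and for Sox7 Ski (0.97), Nr6a1 (0.95) and Lifr (0.95). Foxa2 was most like Grb10 (0.94), Wwp1 (0.92) and Tmsb4x (0.92), and Hnf4a was most like Sec61a1 (0.92), Kank1 (0.89) and Pwp2 (0.85). Over all 16 embryos the same r ranged from -0.22 for Sox17 with Me1 to 0.93 for Hnf4a with Kank1. The highest of 7919 values over 10 embryos is large by selection, and these values are a description.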

How the data were processed

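Polyadenylated RNA of 4 ESC and 16 single-embryo libraries was used, with no sample left out. The authors deposited estimated counts (expected counts) per Ensembl gene, and the submitters' processing notes name kallisto 0.46 and mm10. The sources used here do not give how transcripts were summed to genes. The counts were rounded. Symbols came from GENCODE M21 (GRCm38), which named 29910 of the 30265 genes.

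Each experiment was fitted separately over all genes with edgeR 4.0.16 (filterByExpr with a lowest count of 10, TMM, robust quasi-likelihood F test, no covariate), adjusted by Benjamini and Hochberg over all genes tested, with a threshold of 0.05. SE were derived from the fold change and F. CPM use scaled library sizes and log2 CPM a prior count of 2. Levels per length divide counts by the union of exons and by the library's sum of that quantity, with a pseudocount of 0.1 on the log2 scale. Steps between neighbours were set against their SD. Permutations were exact or used 100000 resamples. The fit was tested on simulated data.

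The members and lists were chosen with earlier results of these data known. Members are all named. Of each other list, up to 4 genes past the threshold were named, or the gene with the smallest p, and the 3 genes most like each member. Not every gene named by this rule is reported here. Alternatives were other scalings, filters and tools, a gene length offset, covariates, the replicate number as a block, and each library left out. A crossed pairing, an unblocked fit of 12 embryos and the ratios to Gata6 were added after the data were seen.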

Additional observations from a re-analysis of the deposited data

How the results depend on the processing

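The main fit did not pair samples by replicate number. Deviations of same-numbered libraries from their group means correlated at -0.108 in ESCs and -0.114 to 0.108 in embryos. With 2 libraries per ESC group both numbers give the same value by construction, so it cannot decide whether they pair samples. In ESCs 444 genes were called, against 1435 with DESeq2, 115 with limma voom, 870 with no filter, 155 with a replicate block and 1 to 998 without 1 library. Members called higher in ESCs numbered 2, against 5 with DESeq2, 0 with limma voom and 0 to 6 without 1 library, where the lone library of a group is assumed to vary like the other group. With the crossed pairing in ESCs 1475 genes and 5 members were called. In embryos 2447 genes were called, against 902 with a replicate block and 1423 in the same 12 embryos without it. Of the 2 members called lower in embryos, 1 remained with a replicate block, where Pdgfra had an adjusted p of 0.0629, and 1 with the mitochondrial percent as a covariate, where Sox7 reversed to 0.89. Sox17 passed in all the alternatives run (adjusted p from 7.15e-08 to 0.0385). DESeq2 called Hnf4a lower in embryos (adjusted p = 0.0264). With the median transcript length 3 of 7 members kept their rank in scramble embryos and 2 in GFP cells, and with the longest transcript 4 in GFP cells. The correlation of Gata4 and Foxa2 was -0.053 without the 2 farthest embryos. The cause was not tested where a value changed. Sox7 and Foxa2 were at 0 in scramble embryo 6, among the deepest libraries, and the relation of zeros to total counts was not tested.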
